A study of Mus musculus with 8 samples.

Results

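Guanylate-binding proteins (GBPs) and immunity-related GTPases (IRGs) are GTPases that cells make in response to interferons. In mice both families gather on vacuoles that hold bacteria or parasites and help to break them open, and 2 of the genes described here, Irgm1 and Igtp, encode regulators that sit on the cell's own membranes and keep the other IRGs in check. In mouse blood stem cells the loss of Irgm1 is known to impair self-renewal. The values below describe 8 gene rows of these families in sorted haematopoietic stem and progenitor cells: Mpa2l, Gbp2, Gbp3 and Gbp6 of the GBPs, and Iigp1, Gm4951, Irgm1 and Igtp of the IRGs. They were chosen by symbol, each from the probe sets to which the array's annotation gives that symbol alone, and they hold 47 of 208881 such probe sets and 8 of 19958 gene rows. The choice was made with the higher adult levels of some of them already known, so the differences between adult and fetal cells are given as a description with no test.

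The cells had been sorted as lineage-negative, Sca1-positive and cKit-positive, and their amplified RNA was read on Affymetrix Mouse Gene 1.0 ST arrays. The 8 arrays comprise 2 of Hmga2+/+ adult bone marrow from mice aged 8 to 12 weeks, 3 of Hmga2-/- fetal liver and 3 of Hmga2+/+ fetal liver, both fetal groups at E14.5, in midgestation. The labels record no interferon, infection or other treatment in any group, and neither the strain nor the deleted part of Hmga2 is given in the sources used here. The adult and fetal groups differ in both age and organ, which cannot be told apart. In a bulk sample, fewer cells of a type and less RNA per cell cannot be told apart either.

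The Hmga2 row, which checks the genotype labels, read 5.89, 5.88 and 6.08 (log2 intensity) on the Hmga2-/- fetal arrays and 9.24, 9.01 and 8.83 on the Hmga2+/+ fetal arrays. All values are log2 of the deposited intensity, averaged over the probe sets of a gene, and levels of different genes are not set against each other. Olfactory receptor genes served as background, with a 95th percentile of 5.97 on the log2 scale. Where a fetal group lay below it, a fold is given as a lower bound against that level. The percentile and the bounds are of gene averages, and a row below it can hold brighter probe sets. On Hmga2+/+ fetal arrays the brightest probe set averaged 7.44 for Iigp1, 7.90 for Gbp3 and 7.05 for Gbp2. Probe sets with means below 5.97 in every group were 2 of 5, 5 of 11 and 2 of 12 in these genes. Kit, which encodes the cKit of the sort, read 9.64 or more on all 8 arrays, and Ly6a, which encodes Sca1, was above 5.97 on all arrays except Hmga2-/- fetal array 1. Of the stem and progenitor cell markers beside them, Cd34, Flt3 and Procr were above 5.97 on all 8 arrays, and Slamf1 was below 5.97 on 7 of 8. Among T cell markers 5 of 6 lay below 5.97 on all 8 arrays, Cd3e, Cd3d, Cd3g, Cd8a and Cd8b1. Of 7 natural killer cell markers 5 did so, Ncr1, Klrb1c, Klrd1, Gzma and Gzmb, and of 4 B cell markers 3, Cd79a, Ms4a1 and Pax5. The natural killer markers Nkg7 and Prf1 and the B cell marker Cd79b were above 5.97 on all 8 arrays. The T cell marker Cd4 was above it on Hmga2+/+ fetal array 3 alone (6.06).

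In the RefSeq table of mouse assembly GRCm38.p6 some of the genes lie close together. Gbp2 (chr3:142620663-142638008) and Gbp3 (chr3:142560016-142573213) are neighbours on chromosome 3. Irgm1 (chr11:48865245-48871420) and Igtp (chr11:58199556-58207592) are both on chromosome 11 but far apart by these coordinates. Mpa2l is an earlier symbol of the gene now called Gbp6 (chr5:105270702-105295871), so the array has separate rows under the earlier and the current symbol of that gene. The single Mpa2l probe set is numbered next to those of Gbp4, a gene of chromosome 5. The 10 probe sets annotated Gbp6 are numbered between those of Gbp1 and Gbp3, both of chromosome 3. The files do not settle which locus this Gbp6 row measures, and it is called here the row annotated Gbp6.

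Promoter sequences are shown because interferons act on these genes through short DNA motifs, and because the 8 rows did not all have the same pattern. RefSeq promoters were searched for 4 of the 7 genes that carry the 8 symbols, and not for Gbp6, Iigp1 and Gm4951. All 4 held, in the 300 bases searched (250 before to 50 after an annotated start), the letters GAAA, any 2 bases and GAAA, or the reverse complement (TTTC, any 2 bases, TTTC), a form of the interferon-stimulated response element. Of 32851 promoters of the same length in the table, 3.44% held them on either strand. The letters TTCNNNGAA, a form of the gamma-activated site to which STAT proteins bind, were in 8.3% of promoters and in Igtp alone of the 4. Both forms stood together in 0.454% of promoters. The sequences below are the 120 bases before the start, 5′ to 3′ on the strand of the gene, with matches to either form in capitals, at chr3:142620543-142620662 (+) for Gbp2, chr3:142559924-142560043 (+) for Gbp3, chr11:48871421-48871540 (-) for Irgm1 and chr11:58199436-58199555 (+) for Igtp.
Gbp2: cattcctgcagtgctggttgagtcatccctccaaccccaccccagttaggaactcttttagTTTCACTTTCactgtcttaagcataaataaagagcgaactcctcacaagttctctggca
Gbp3: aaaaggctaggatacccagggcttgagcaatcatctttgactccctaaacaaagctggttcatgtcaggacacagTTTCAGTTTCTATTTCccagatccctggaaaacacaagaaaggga
Irgm1: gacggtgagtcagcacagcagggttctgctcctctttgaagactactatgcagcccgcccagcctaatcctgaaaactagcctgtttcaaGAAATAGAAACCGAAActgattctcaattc
Igtp: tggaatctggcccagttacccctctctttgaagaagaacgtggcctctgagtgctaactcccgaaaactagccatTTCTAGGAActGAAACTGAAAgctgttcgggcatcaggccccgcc

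In Gbp2 the single match begins 59 bases before the start. Gbp3 and Irgm1 each hold 2 overlapping matches to the response element form, which begin 45 and 39 bases before the start in Gbp3 and 30 and 24 bases before it in Irgm1. At least 2 such matches were found in 0.225% of all promoters. In Igtp the gamma-activated site form begins 45 bases and the response element form 34 bases before the start, and they do not overlap. A second annotated start of Gbp3 held no match in its 300 bases. Of 7 other genes of the family list with a promoter in the table, 4 held the response element form and 3 the gamma-activated site form. A match in letters is a description of the sequence and not evidence of binding.

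**Figure D1:**
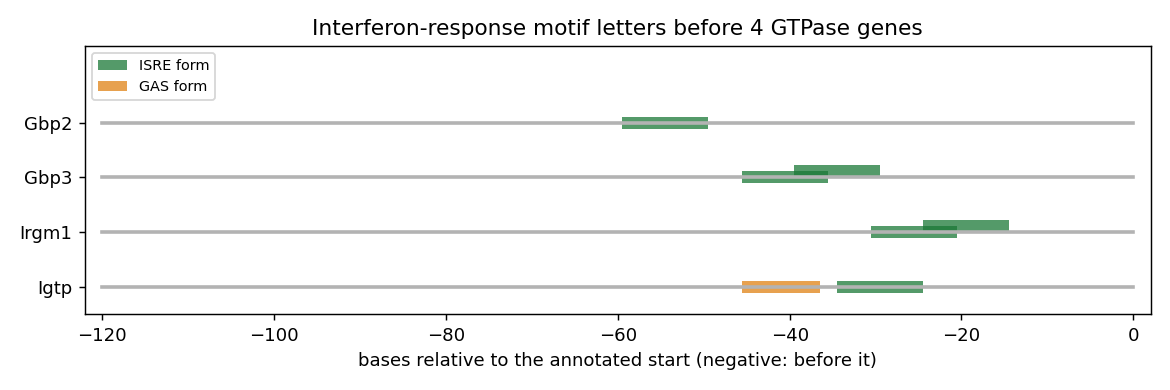
Positions of motif letters in the 120 bases before the annotated start of Gbp2, Gbp3, Irgm1 and Igtp. The horizontal axis gives bases relative to the start, green bars mark the interferon-stimulated response element (ISRE) form and orange bars the gamma-activated site (GAS) form; second matches are drawn slightly raised. All 4 genes have a green bar, and Igtp has an orange bar beginning 45 bases before its start.

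The GTPases of the GBP family were led by Mpa2l. Its probe set read 8.08 and 7.21 on the adult arrays, 3.16, 3.24 and 3.10 on the Hmga2-/- fetal arrays and 2.58, 2.21 and 3.10 on the Hmga2+/+ fetal arrays. All 6 fetal values lay far below the background percentile and both adult values above it. Against that background adult cells had at least 3.20-fold more signal than either fetal group, and the measured differences on the log2 scale were 5.02 from Hmga2+/+ and 4.48 from Hmga2-/- fetal cells. The row annotated Gbp6 had no such pattern. It read 7.56 and 8.08 on adult, 6.91, 7.44 and 8.19 on Hmga2-/- fetal and 7.45, 7.30 and 7.76 on Hmga2+/+ fetal arrays, and all groups overlapped.

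Gbp2, which gathers at the vacuole of Toxoplasma in mouse cells, read 7.39 and 6.38 on the adult arrays, 5.79, 5.66 and 5.63 on the Hmga2-/- fetal arrays and 5.46, 5.77 and 5.49 on the Hmga2+/+ fetal arrays. Adult values stood above all 6 fetal ones, but the adult arrays differed from each other by 1.01. The lower bound of the fold over either fetal group was 1.89, and the log2 difference from Hmga2+/+ fetal cells was 1.31. Its 12 probe sets were uneven. The difference between adult and Hmga2+/+ fetal means ran from -0.14 to 2.97, was above 0 in 11 of 12 and left no overlap between arrays in 5. Gbp3, its neighbour, read 6.45 and 6.19 on adult, 5.83, 5.87 and 5.80 on Hmga2-/- fetal and 4.99, 5.19 and 5.64 on Hmga2+/+ fetal arrays. The 3 groups did not overlap in this average of Gbp3, in the order adult, Hmga2-/- fetal, Hmga2+/+ fetal. Of its 11 probe sets, 3 separated adult from Hmga2+/+ and 2 adult from Hmga2-/- fetal arrays. The differences of adult from Hmga2+/+ fetal means ran from -0.39 to 3.22, with 10 above 0. The adult excess over background was at least 1.28-fold, on a log2 difference of 1.05 from Hmga2+/+ and 0.49 from Hmga2-/- fetal cells.

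Among the IRGs, Iigp1 (also named Irga6), which coats vacuoles of intracellular parasites, had the tightest groups. It read 6.77 and 6.90 on adult, 4.91, 4.71 and 4.83 on Hmga2-/- fetal and 5.28, 5.16 and 5.29 on Hmga2+/+ fetal arrays. No 2 of its groups overlapped, with log2 differences of 1.59 from Hmga2+/+ and 2.02 from Hmga2-/- fetal cells. The adult average was at least 1.82-fold above the background, which both fetal averages lay under. In the deposited table by exon the difference from Hmga2+/+ fetal cells was 0.82, which is the value of a single probe set of Iigp1. All 5 of its probe sets were higher in adult than in Hmga2+/+ fetal cells, by 0.82 to 2.92, and 4 of them without overlap. Gm4951 (synonym Ifgga2), which lies close to Iigp1 on chromosome 18, was read by 1 probe set. That probe set stood at 7.18 and 7.91 on adult, 4.77, 4.83 and 4.02 on Hmga2-/- fetal and 4.47, 4.64 and 5.07 on Hmga2+/+ fetal arrays. The adult signal was at least 2.98-fold above the fetal one, with log2 differences of 2.82 from Hmga2+/+ and 3.00 from Hmga2-/- cells, and the fetal groups overlapped.

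The regulators Irgm1 and Igtp (also named Irgm3) were above background on all arrays except Hmga2-/- fetal array 1 for Igtp. Irgm1 read 9.07 and 7.69 on adult, 7.19, 8.05 and 7.88 on Hmga2-/- fetal and 8.07, 7.13 and 7.95 on Hmga2+/+ fetal arrays. Its groups overlapped. The adult mean exceeded the Hmga2+/+ fetal mean by 0.67. With single arrays left out the difference ran from -0.027, without adult array 1, to 1.36, and with medians of probe sets it was 1.15. Igtp read 8.06 and 7.23 on adult, 5.80, 6.66 and 6.43 on Hmga2-/- fetal and 7.63, 6.82 and 7.27 on Hmga2+/+ fetal arrays. Adult and Hmga2+/+ fetal arrays of Igtp overlapped, at a log2 difference of 0.41. With single arrays left out this ran from -0.0086, without adult array 1, to 0.82. Hmga2-/- fetal arrays lay below both other groups, 1.35 under the adult mean on the log2 scale. That difference was 0.55 with medians of probe sets. It ran from 0.93, without adult array 1, to 1.77 with single arrays left out, and over the 4 probe sets of Igtp from -0.33 to 2.75.

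**Figure D2:**
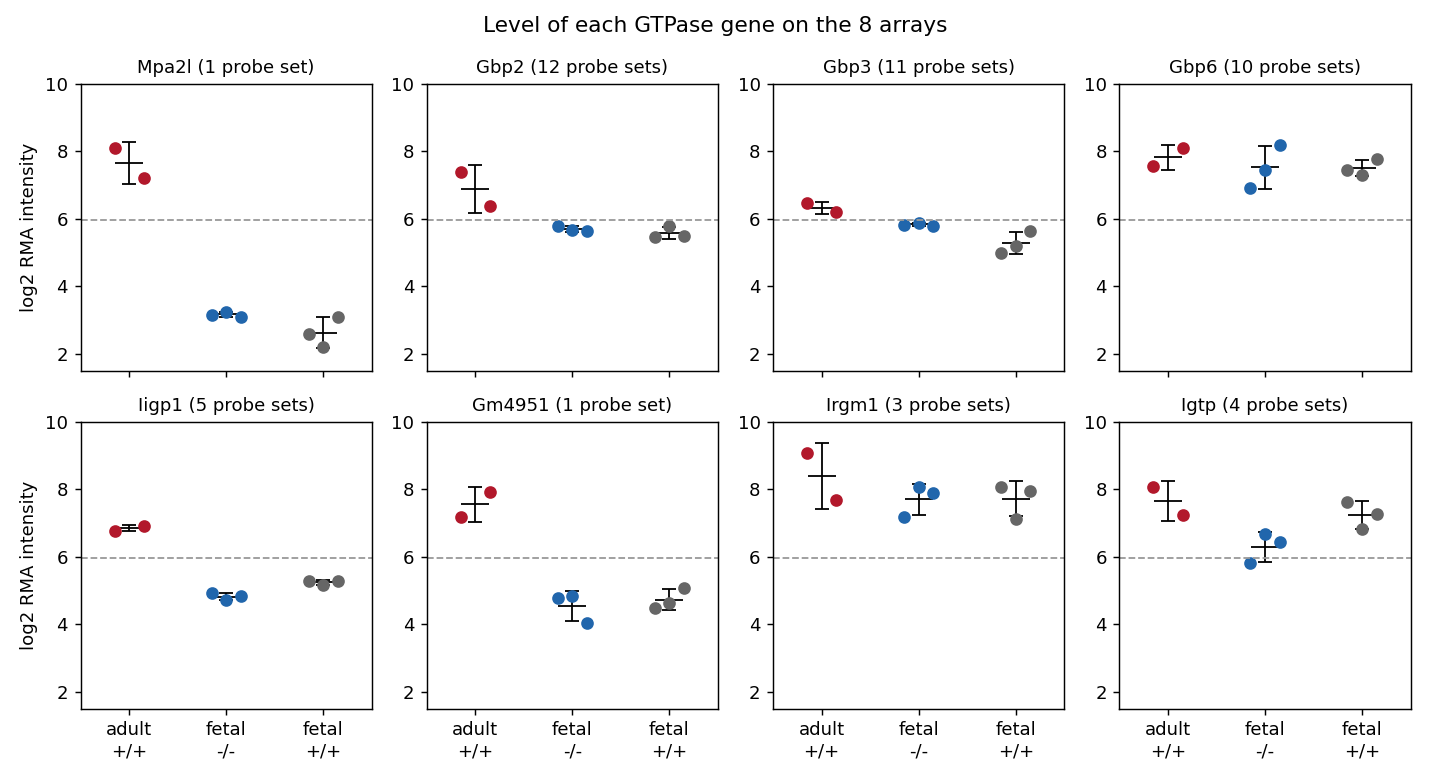
Log2 RMA intensity of each GTPase gene on every array, averaged over its probe sets. Columns are adult marrow Hmga2+/+ (red, n = 2), fetal liver Hmga2-/- (blue, n = 3) and fetal liver Hmga2+/+ (grey, n = 3); bars give the mean and SD, and the dashed line is the 95th percentile of olfactory receptor genes, 5.97. Mpa2l, Gbp2, Gbp3, Iigp1 and Gm4951 lie above the line in adult cells alone, while the row annotated Gbp6 and Irgm1 lie above it throughout.

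Over the 8 rows, adult means were above both fetal means in all 8, where 56.7% of all genes had an adult mean above the Hmga2+/+ and 56.4% above the Hmga2-/- fetal one. The median log2 difference from Hmga2+/+ fetal cells was 1.18, beside 0.06 over all genes, and ran from 0.32 for the row annotated Gbp6 to 5.02 for Mpa2l. In 5 of the 8 every adult array was above every Hmga2+/+ fetal array, as in 20.1% of all genes, and in the same 5 every adult array was above all 6 fetal arrays, as in 14.6% of all genes. Against Hmga2-/- fetal arrays alone 6 of the 8 did so, with Igtp added, as in 29.6% of all genes. Of the 47 probe sets, 17 separated adult from Hmga2+/+ fetal cells on the higher side, beside 12.5% of all probe sets, and 0 on the lower side, beside 12.8%. Since the rows were chosen with these levels known, the shares are given for scale. The adult arrays did not rank the genes alike. Array 1 was the higher for Mpa2l, Gbp2, Gbp3, Irgm1 and Igtp, with a gap of 0.26 to 1.39, and array 2 for Gm4951, the row annotated Gbp6 and Iigp1, with a gap of 0.12 for Iigp1 and 0.73 for Gm4951. Without adult array 1 the median difference over the 8 rows was 0.86, and without adult array 2 it was 1.44.

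**Figure D3:**
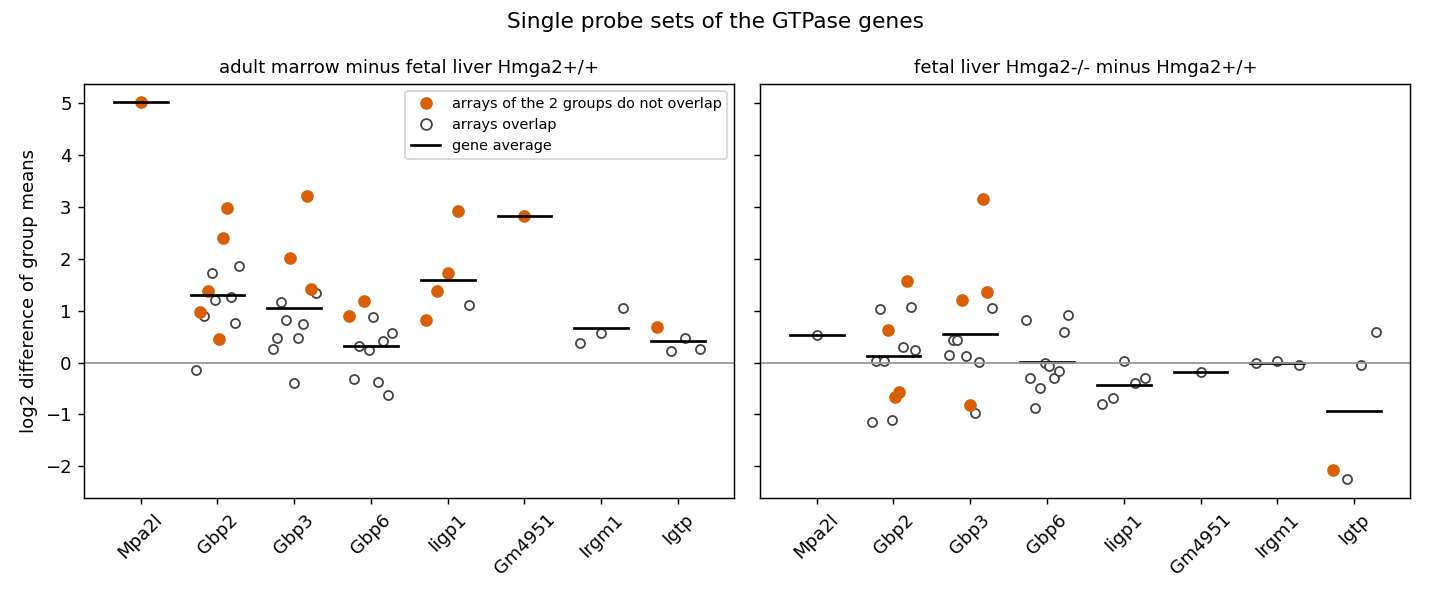
Log2 difference of group means for each of the 47 probe sets, by gene, for adult marrow minus fetal liver Hmga2+/+ (left) and fetal liver Hmga2-/- minus Hmga2+/+ (right). Filled orange points are probe sets whose arrays do not overlap between the groups, open points overlap, and black lines give gene averages. On the left 17 points are filled, all above 0; on the right filled points lie on both sides of 0, with a Gbp3 probe set at 3.16 and an Igtp probe set at -2.07.

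Ly6a is itself induced by interferon in mouse cells. It read 8.99 and 8.44 on adult, 5.59, 6.34 and 7.25 on Hmga2-/- fetal and 7.39, 6.64 and 6.65 on Hmga2+/+ fetal arrays. Ly6a rose in adult relative to Hmga2-/- fetal cells (log2 difference 2.32, limma adjusted p = 0.0179) and missed the threshold against Hmga2+/+ fetal cells (1.82, limma adjusted p = 0.0592). The mean level of the natural killer marker list was 5.29 to 5.30 on adult arrays, 4.90 to 5.01 on Hmga2-/- fetal and 5.06 to 5.20 on Hmga2+/+ fetal arrays. That of the macrophage and monocyte list, of which 2 of 7 were below 5.97 on all arrays, was 5.71 to 5.85 on adult, 6.15 to 6.44 on Hmga2-/- fetal and 5.84 to 6.31 on Hmga2+/+ fetal arrays. The part of these differences in the GTPase levels was not tested.

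The contrast of Hmga2-/- with Hmga2+/+ fetal cells was not used to choose the genes, and limma called none of the 8 at an adjusted p under 0.05. Over all genes 2 of 19958 were called, or 0.01%. At an unadjusted p under 0.05 stood 3 of the 8, 1 higher and 2 lower, where 7.63% of all genes did. Mean levels of Mpa2l, Gbp2, Gbp3 and the row annotated Gbp6 were above, and those of Iigp1, Gm4951, Irgm1 and Igtp below, their Hmga2+/+ level, so that 4 of 8 were above 0 beside 46.8% of all genes. This sign turned for Gbp2 with medians of probe sets, for the row annotated Gbp6 after quantile normalization, and for that row, Irgm1 and Gm4951 without single arrays.

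Igtp had the largest difference of the 8 in this contrast, 6.30 ± 0.44 in Hmga2-/- and 7.24 ± 0.41 in Hmga2+/+ fetal cells (SD, n = 3 each). The log2 difference was -0.94 (SE 0.30, limma adjusted p = 0.631). Its arrays did not overlap, which 7.86% of all genes showed on the lower side. Iigp1 averaged 4.82 ± 0.10 in Hmga2-/- and 5.24 ± 0.07 in Hmga2+/+ cells (SD, n = 3 each) and did not overlap either. Its log2 difference was -0.43 (SE 0.14, limma adjusted p = 0.631), with both means under background, and -0.68 with medians of probe sets. Taken singly, all 5 of its probe sets overlapped between these groups, with differences from -0.79 to 0.02. The table by exon gave -0.79, the value of the lowest of these probe sets. Gbp3 was the single row without overlap on the higher side, as 5.94% of all genes were. It averaged 5.83 ± 0.04 in Hmga2-/- and 5.27 ± 0.33 in Hmga2+/+ cells (SD, n = 3 each), a log2 difference of 0.56 (SE 0.19, limma adjusted p = 0.631), also with both means under background.

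The other 5 rows had differences between -0.18 for Gm4951 and 0.54 for Mpa2l. For Irgm1 the log2 difference was -0.01 with an SE of 0.39, and for the row annotated Gbp6 0.01 with an SE of 0.30. None of these 5 was at an unadjusted p under 0.05, and their arrays overlapped between the groups.

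For Igtp and Gbp3 the gene average hid a difference between probe sets. The probe set of Igtp with the lowest number read 7.71, 6.92 and 7.11 on Hmga2-/- fetal arrays and 9.62, 9.35 and 8.96 on Hmga2+/+ fetal arrays, a log2 difference of -2.07 (SE 0.36). On the adult arrays it read 9.77 and 10.21. A fit of limma over all 208881 probe sets did not call it (adjusted p = 0.567), and the other 3 probe sets of Igtp had overlapping arrays and differences of -2.25, -0.04 and 0.59. With medians of probe sets in place of means, the difference of Igtp was -0.26.

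The ninth of 11 probe sets of Gbp3 read 7.23, 7.37 and 7.03 on Hmga2-/- fetal arrays and 3.34, 4.01 and 4.81 on Hmga2+/+ fetal arrays. This log2 difference of 3.16 (SE 0.56) was also not called over all probe sets (limma adjusted p = 0.567). On the adult arrays it read 8.20 and 6.34. The tenth, at 8.76, 9.27 and 8.23 on Hmga2-/- and 6.36, 7.65 and 8.15 on Hmga2+/+ fetal arrays, did not overlap either, nor did the fourth on the higher and the sixth on the lower side. The other 9 had differences from -0.97 to 1.20. Of all 47 probe sets, 5 were without overlap on the higher and 4 on the lower side, beside 6.57% of all probe sets on each side, and limma called none of the 208881 probe sets in this contrast, with 7.08% of them at an unadjusted p under 0.05.

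**Figure D4:**
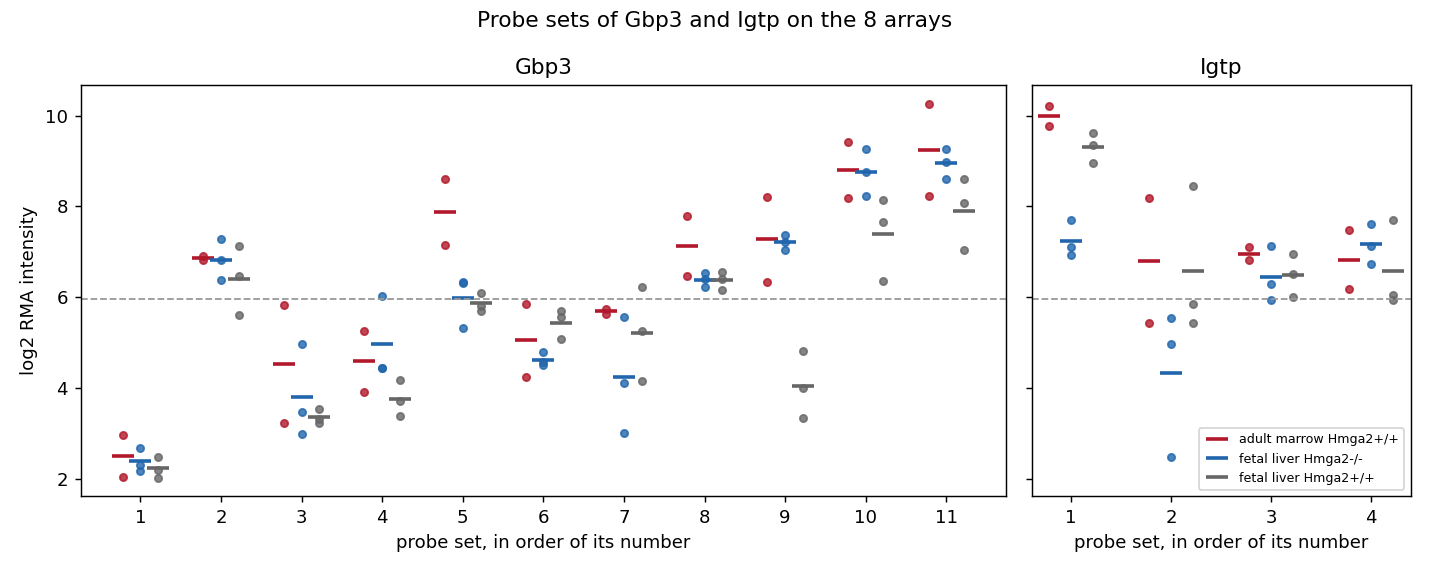
Log2 RMA intensity of each probe set of Gbp3 (left) and Igtp (right), in order of probe set number. Points are single arrays and short lines group means of adult marrow Hmga2+/+ (red), fetal liver Hmga2-/- (blue) and fetal liver Hmga2+/+ (grey); the dashed line is 5.97. At probe set 9 of Gbp3 the Hmga2-/- arrays lie with the adult ones and above Hmga2+/+ fetal arrays, and at probe set 1 of Igtp the Hmga2-/- arrays lie below both other groups.

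Other members of the families were taken from a list of GBP, IRG and related very large GTPase symbols, of which 13 had a row of their own. All 13 had an adult mean above the Hmga2+/+ fetal mean (median log2 difference 0.62), but in 7 of them both means lay under background. Of the 13, 3 rose, where limma called 0.832% of all genes higher in adult cells. Ifi47, which encodes the IRG protein Irgd, read 9.48 and 9.32 on adult, 8.33, 8.12 and 8.34 on Hmga2-/- fetal and 7.79, 8.36 and 8.36 on Hmga2+/+ fetal arrays. Its log2 difference from Hmga2+/+ fetal cells was 1.23 (SE 0.21, limma adjusted p = 0.0191). Gm12250, which encodes Irgb10, a mouse IRG that attacks bacterial membranes, read 7.50 and 7.25 on adult, 6.17, 5.49 and 5.06 on Hmga2-/- fetal and 5.93, 5.88 and 5.95 on Hmga2+/+ fetal arrays. It was at least 2.66-fold higher in adult than in Hmga2+/+ fetal cells (log2 difference 1.46, SE 0.28, limma adjusted p = 0.0297). The third was Gm8995, at 10.71 and 10.84 on adult, 9.29, 9.31 and 9.43 on Hmga2-/- fetal and 8.94, 8.98 and 9.18 on Hmga2+/+ fetal arrays, with a log2 difference of 1.75 (SE 0.16, limma adjusted p = 0.00196). The tables used here list Gm8995 as an RNA of chromosome 7 and do not assign it to a family.

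All adult arrays of these 3 rows were above all fetal ones. Gbp4, the chromosome 5 neighbour of Mpa2l by probe set number, was below background in every group, at 5.80 and 5.33 on adult, 4.18, 4.45 and 4.66 on Hmga2-/- fetal and 4.18, 4.95 and 4.53 on Hmga2+/+ fetal arrays. In the contrast of Hmga2-/- with Hmga2+/+ fetal cells none of the 13 was called, with differences from -0.35 to 0.31. Ifi47 was not called in 4 of its 15 alternatives, among them the fit without adult array 1 (limma adjusted p = 0.0764). Gm12250 was not called in 8 of 16, with a limma adjusted p of 0.118 without adult array 1, 0.0575 without adult array 2, 0.0522 without Hmga2-/- fetal array 2 and up to 0.0859 without a single Hmga2+/+ fetal array. Gm8995 was called in all 16, at an adjusted p of at most 0.0179.

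The interferon pathway around the GTPases was described from 112 further genes, listed by role. Of these, 13 rose in adult relative to Hmga2+/+ fetal cells and 0 fell, where 0.832% of all genes rose and 2.36% fell. Their median log2 difference was 0.25, beside 0.06 over all genes. The count of 13 was 6, 7 and 5 without Hmga2+/+ fetal array 1, 2 and 3, and 6 without adult array 1. It was 8 without Hmga2-/- fetal array 2 or 3. Against Hmga2-/- fetal cells, which share the adult arrays, 24 rose and 0 fell, where 3.11% of all genes rose and 5.8% fell, and between Hmga2-/- and Hmga2+/+ fetal cells none of the 112 was called.

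Of 20 ligands, 1 rose in adult cells. This was Il18, a cytokine that drives interferon gamma production, at 6.46 and 6.26 on adult, 4.52, 5.15 and 4.97 on Hmga2-/- fetal and 5.28, 5.19 and 5.51 on Hmga2+/+ fetal arrays. It was at least 1.31-fold higher than in Hmga2+/+ fetal cells (log2 difference 1.03, SE 0.21, limma adjusted p = 0.0373). Ifng, the gene of interferon gamma, was below background on every array, at 5.21 and 5.18 on adult, 4.89, 5.50 and 4.95 on Hmga2-/- fetal and 4.70, 4.67 and 5.19 on Hmga2+/+ fetal arrays. Ifnb1 also lay below background on all 8, with adult arrays at 5.05 and 4.99. Of the other interferon genes, Ifna9, Ifna14, Il28a and Il28b were above background on all 8 arrays. Ifna14 read 8.38 and 7.89 on adult arrays, above all fetal ones (log2 difference from Hmga2+/+ fetal cells 0.67, SE 0.29, limma adjusted p = 0.255). Ifnab was above background on all arrays except Hmga2-/- fetal array 2, with adult arrays at 6.68 and 6.93 above all fetal ones.

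The receptors and kinases gave no call. Among 6 receptor genes the median log2 difference of adult from Hmga2+/+ fetal cells was -0.27, and all 6 were below 0. Ifngr2, a chain of the interferon gamma receptor, read 6.92 and 6.91 on adult, 7.49, 7.15 and 7.39 on Hmga2-/- fetal and 7.66, 7.28 and 7.61 on Hmga2+/+ fetal arrays (log2 difference -0.60, SE 0.18, limma adjusted p = 0.116). Its adult arrays lay below all fetal ones. Ifngr1, the ligand-binding chain, had a difference of -0.15 (SE 0.29) with overlapping arrays, and the kinase gene Jak2 one of -0.48 (SE 0.19, limma adjusted p = 0.212).

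Of 12 transcription regulators none was called against Hmga2+/+ fetal cells. The smallest p-values were those of Nlrc5, which drives MHC class I genes (log2 difference 0.74, SE 0.17, limma adjusted p = 0.0566), Irf7, an interferon regulatory factor (1.05, SE 0.30, limma adjusted p = 0.102), Irf1, which binds promoters of GBP genes (0.71, SE 0.26, limma adjusted p = 0.178), and Stat2 (0.83, SE 0.35, limma adjusted p = 0.251). Against Hmga2-/- fetal cells 2 of the 12 rose, Irf7 (1.42, limma adjusted p = 0.026) and Nlrc5 (0.82, limma adjusted p = 0.0256). Adult Irf7 was at least 2.01-fold and adult Nlrc5 at least 1.32-fold above Hmga2+/+ fetal cells. Irf1 read 7.31 and 7.07 on adult, 6.67, 7.12 and 6.21 on Hmga2-/- fetal and 6.37, 6.69 and 6.38 on Hmga2+/+ fetal arrays, so that adult arrays overlapped with the Hmga2-/- ones. None of 8 inhibitors was called, with the interferon-induced Usp18 nearest (0.93, at least 1.25-fold, SE 0.23, limma adjusted p = 0.0617).

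Among further interferon targets, 7 of 22 interferon-stimulated genes rose in adult cells, all 22 having a difference above 0 (median 0.72), and 4 of 19 other interferon gamma targets, among them genes of antigen processing, chemokines and immune receptors, rose (median 0.51). The 4 interferon-stimulated genes with the smallest p-values were, by their lower bounds over Hmga2+/+ fetal cells, Ifi44 (at least 5.56-fold), Ifit3 (at least 2.30-fold), Oas2 (at least 2.90-fold) and Oas3 (at least 1.36-fold), the Oas genes encoding sensors of double-stranded RNA. Their measured log2 differences were 2.97, 1.78, 1.60 and 0.82, and those of the other called genes of this list were 1.29 for Samd9l, 1.10 for Xaf1 and 0.85 for Trim30. Of the other interferon gamma targets, H2-Ab1 rose at least 3.99-fold (log2 difference 2.40) and H2-Aa at least 3.69-fold (2.34), both MHC class II genes. Cd74, of the same pathway (0.88), and the peptide transporter gene Tap1 rose as well. Cd74 lay below background on all arrays. Tap1 read 7.59 and 7.40 on adult, 6.84, 6.74 and 6.29 on Hmga2-/- fetal and 6.09, 6.45 and 6.26 on Hmga2+/+ fetal arrays (log2 difference 1.23, SE 0.21, limma adjusted p = 0.019). Mx2, an interferon-induced GTPase of the dynamin superfamily, missed the threshold against Hmga2+/+ fetal cells (log2 difference 1.06, SE 0.29, limma adjusted p = 0.087) and rose against Hmga2-/- fetal cells (1.16, limma adjusted p = 0.0406). Its adult excess over background was at least 1.04-fold. Mx1, its relative, also rose against Hmga2-/- fetal cells (0.86, limma adjusted p = 0.0282), below background in every group.

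The 12 genes of vacuole targeting, mostly autophagy factors that in mice direct IRGs and GBPs to vacuoles, gave no call and had a median of -0.25, with 3 of 12 above 0. Ube2l3 (-0.69), Atg7 (0.59), Atg16l1 (-0.36) and Atg5 (-0.55) had the smallest p-values (limma adjusted p = 0.132 for Ube2l3). Of 6 inflammasome genes, which GBPs are known to feed with bacterial products, Casp1 rose. This protease gene, whose product matures the Il18 protein, read 7.41 and 7.86 on adult, 6.33, 6.52 and 6.34 on Hmga2-/- fetal and 5.57, 5.23 and 6.31 on Hmga2+/+ fetal arrays. The adult level of Casp1 was at least 2.93-fold above the Hmga2+/+ fetal one (log2 difference 1.93, SE 0.29, limma adjusted p = 0.0134), and all 3 groups of arrays were apart.

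**Figure D5:**
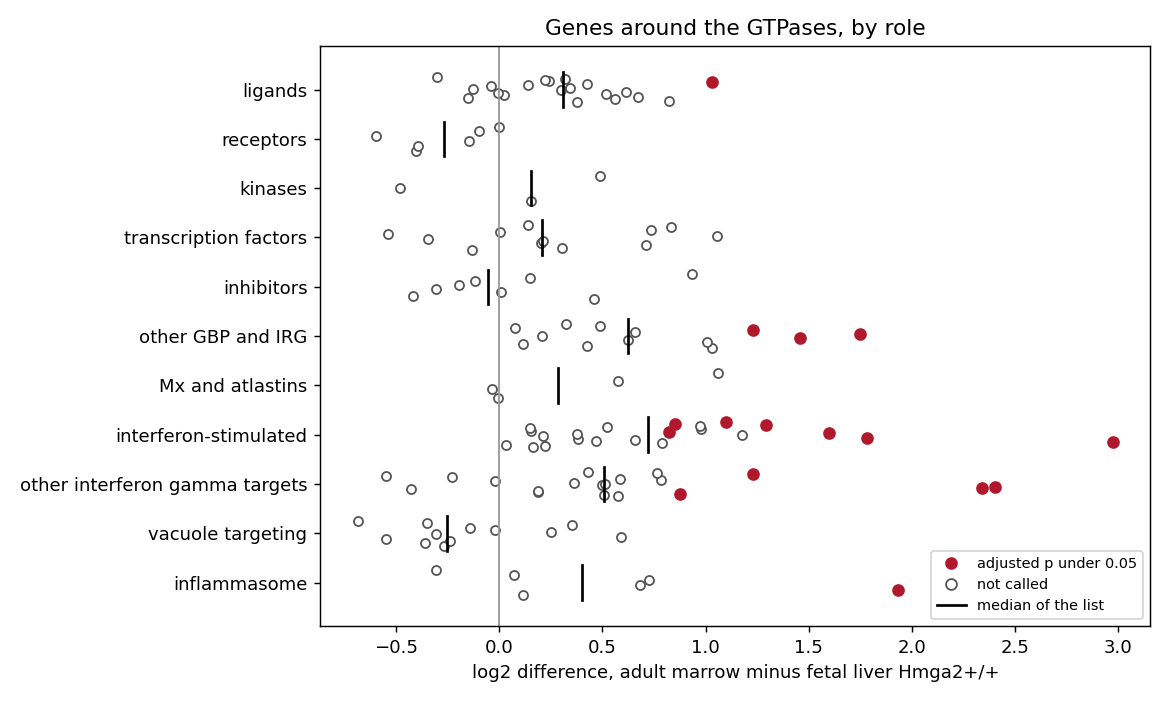
Log2 difference of adult marrow minus fetal liver Hmga2+/+ for genes around the GTPases, by role list. Each point is a gene, filled red where the limma adjusted p is under 0.05, and black lines are list medians. Called genes are all above 0, and the 6 receptors lie below 0. The calls lie mainly in the lists of interferon-stimulated genes (7 of 22), other interferon gamma targets (4 of 19) and other GBP and IRG symbols (3 of 13). The last include Gm8995, which was not assigned to a family.

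Outside the lists, the genes whose level across the 8 arrays was most like the mean of the 8 GTPase rows were Thbs1 (Pearson r = 0.990), Rgs1 (0.988), Alcam (0.986), Nfia (0.978), Dync1li2 (0.973), Epha1 (0.972), Ptpn3 (0.972), Nfkbid (0.970), Myl10 (0.970) and Nod1 (0.969). These coefficients describe 8 arrays that fall into groups, and 2 adult arrays set most of the spread. Rgs1, a regulator of G protein signalling, read 10.29 and 9.96 on adult, 7.77, 8.12 and 7.95 on Hmga2-/- fetal and 8.42, 7.66 and 8.38 on Hmga2+/+ fetal arrays. Each GTPase was also set against that mean, which contains the gene itself and in which Mpa2l has the widest range, so that these coefficients are raised by construction. They were 0.986 for Mpa2l, 0.949 for Iigp1, 0.936 for Gm4951 and 0.900 for Gbp2, and lower for Gbp3 (0.767), Igtp (0.666), Irgm1 (0.666) and the row annotated Gbp6 (0.383).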

How the data were processed

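The deposited intensity values are RMA output on a linear scale, 1 per probe set and array; the submitters' processing notes name RMA without a version. Values were log2 transformed with no further normalization, and array medians lay between 6.20 and 6.27. Probe sets with exactly 1 symbol in the platform annotation were averaged per symbol (19958 rows). Groups were compared with limma 3.58.1 (R 4.3.3; tables in Python 3.11.15), all 8 arrays in 1 fit with lmFit and eBayes at defaults, two-sided, Benjamini-Hochberg adjusted over all rows and called under 0.05. The fit was also run on simulated data with independent normal noise at the spreads it had estimated. Its model holds there by construction, so that run cannot show how the fit does on these arrays. With 2 or 3 arrays per group, their number limits the precision.

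The GTPase rows, gene lists and alternatives were chosen with earlier results of these data known, so patterns on the adult side are not independent support. Of the listed further pathway symbols, 8 had no row. Named genes are the 8 rows, called family and signalling genes and the 10 most similar profiles. Up to 4 genes per list with the smallest p against Hmga2+/+ fetal cells were also named. Ly6a, Ifng, Ifnb1, the other interferon genes, the cell markers named and the single probe sets were chosen after their values were seen. The olfactory background used 977 genes. Alternatives were quantile normalization, dim genes or probe sets left out, medians of probe sets, trended and robust variance, 2-group fits, the replicate block, the deposited table by exon and each array left out. No batch is given in the labels, which call the samples biological replicates without saying how animals were pooled. Same-numbered samples shared no deviation from group means throughout (r from -0.04 to 0.11), so the numbers were not taken as pairs.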

Additional observations from a re-analysis of the deposited data

How the results depend on the processing

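None of the 8 GTPase rows was called between Hmga2-/- and Hmga2+/+ fetal cells in any alternative in which limma tested it (adjusted p from 0.146 to 0.999). The sign of that log2 difference turned for Gbp2 with medians of probe sets (-0.10), for the row annotated Gbp6 after quantile normalization (-0.032), and with single arrays left out for the row annotated Gbp6 (range -0.33 to 0.32), Irgm1 (-0.30 to 0.25) and Gm4951 (-0.33 to 0.078). The median difference of adult from Hmga2+/+ fetal cells over the 8 rows lay between 0.86 and 1.44 with single arrays left out and between 1.14 and 1.24 otherwise. The 2 calls over all genes between Hmga2-/- and Hmga2+/+ cells became 1 in the exon table and 2 to 3 with single arrays left out. The 637 calls between adult and Hmga2+/+ fetal cells became 179 with medians of probe sets, 120 with the arrays of the 2 groups alone, 322 in the exon table and 225 to 574 with single arrays left out. The 1779 calls between adult and Hmga2-/- fetal cells became 762 with medians, 1103 in the exon table and 482 to 2437 with single arrays left out. The 13 pathway calls became 8 without dim genes, 6 with medians, 3 with the 2 groups alone, 6 in the exon table and 5 to 10 with single arrays left out. The 3 family calls became 1 with medians and 2 to 3 with single arrays left out. With medians and with the replicate block alike, the 1 call left in the family list was Gm8995, which is not assigned to a family. The replicate block gave 185 calls between adult and Hmga2+/+ fetal cells and 489 between adult and Hmga2-/- fetal cells. It gave 6 in the pathway and 1 in the family list. Its basis is a shared number alone, so these lost calls do not show a weaker effect. The cause of the other changes was not tested, apart from fewer samples in the smaller fits and fewer probe sets in the exon table; where 1 adult array was left, it was taken to vary like the other groups. Levels under the olfactory percentile of 5.97, where the averages of 5 of the 8 rows lay in fetal cells, limit what can be said of their fetal differences.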
